A study of Mus musculus with 16 samples.

Results

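The genes described here encode the enzymes that write and erase DNA methylation in the mouse: the methyltransferases Dnmt1, Dnmt3a and Dnmt3b, their targeting proteins Uhrf1 and Uhrf2, the oxidising enzymes Tet1, Tet2 and Tet3, and the DNA glycosylase Tdg. They were chosen by gene symbol alone, as 9 of the 55385 gene identifiers in the count tables. Each symbol matched 1 identifier, and all 9 passed the low-count filter, so all are among the 16899 genes tested.

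Bulk RNA of the dorsal hippocampus was sequenced in 16 libraries, 4 in each of 4 groups. All mice received a recombinant adeno-associated virus (rAAV) in the dorsal hippocampus and were trained 3 weeks later in contextual fear conditioning, in which a place is learned as the site of an aversive event. Control mice had a virus expressing GFP, a fluorescent protein without enzyme activity on DNA, and Dnmt3a2 mice had one expressing exogenous Dnmt3a2, the short isoform of Dnmt3a. Tissue was taken 1 day or 5 days after training, giving the groups control and Dnmt3a2 at 1 day and control and Dnmt3a2 at 5 days. All 4 groups were therefore injected and trained, and no group without virus or without training is analysed here. The mouse strain, sex and age, the promoter and serotype of the virus and the cell types it entered are not known from the labels. Whether the 4 libraries of a group come from 4 animals is not in the labels, and p-values here reflect just the variation among these libraries, part of which may be technical.

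The libraries held 28.64 to 29.96 M estimated counts. Levels are given in CPM (1 count in each M of the scaled library total). Before scaling, 1 in each M of the total stood for at least 28.6 estimated counts. All 6 neuron markers and all 9 markers of the dorsal hippocampus and its subfields were detected, with summed levels of 5708 to 6557 CPM and 1077 to 1345 CPM. Of these, C1ql2, a marker of dentate granule cells named here after its values were seen, was called lower with Dnmt3a2 at 5 days (log2 -0.60, adjusted p = 0.00119 in edgeR). Averaged over days, C1ql2 (log2 -0.49, adjusted p = 0.000117) and a second of the 9, Pou3f1 (log2 -0.19, adjusted p = 0.0397), were called lower, and Slc1a3, 1 of 6 astrocyte markers, was called higher (log2 0.19, adjusted p = 0.0426). In that average both lists had markers on either side of 0. Of the 9 hippocampal markers 4 lay above 0 (median log2 -0.065), and of the 6 astrocyte markers 3 (median log2 0.008). At 5 days the hippocampal markers summed to 1081 to 1148 CPM in Dnmt3a2 and 1200 to 1345 CPM in control, without overlap. At 1 day their sums overlapped, at 1077 to 1263 and 1172 to 1315 CPM, and the astrocyte sums overlapped on both days. Pou3f1 and Slc1a3 were also named after their values were seen, and the part of these markers in the levels of the 9 genes was not tested. The 8 choroid plexus markers summed to 864.5 CPM in Dnmt3a2 at 1 day replicate 1 and to 1383 CPM in Dnmt3a2 at 5 days replicate 1, against 39.77 to 205.8 CPM in the other 14 libraries. The 8 interferon response markers were also highest in these libraries, at 88.53 and 114.7 CPM, followed by control at 1 day replicate 1 at 76.33 CPM, and lay at 42.01 to 58.25 CPM in the other 13. None of these choroid plexus or interferon response markers passed the test between Dnmt3a2 and control on either day. All 8 of each list nevertheless lay above 0 on both days. The median log2 at 1 day and 5 days was 1.946 and 1.913 for choroid plexus, and 0.375 and 0.751 for interferon response. In bulk tissue, fewer cells of a type and less RNA per cell cannot be told apart.

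DNA methylation in mammals is mostly a methyl group on the cytosine of a CpG dinucleotide. Dnmt3a and Dnmt3b place it on unmethylated DNA, whereas Dnmt1, brought to newly copied DNA by Uhrf1, copies it from the old strand to the new one. TET enzymes oxidise the methyl group in steps, and Tdg cuts out the most oxidised forms so that base excision repair can put back a plain cytosine. Neurons no longer divide, and both the writing and the removal of methyl groups have been linked to memory in the hippocampus.

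The deposited counts of Dnmt3a are per gene, and the annotated coding sequences of its isoforms coincide over most of their length. In the GENCODE M21 annotation, the coding sequence of the short isoform (transcript Dnmt3a-205) has 2070 bases, and all 2070 are identical to the last 2070 of the 2727 coding bases of the long isoform (Dnmt3a-201), or 75.9% of it. The long isoform has 657 coding bases of its own at the start. The sequences around the start of the short isoform are shown because they mark where both begin to coincide, in lower case where only the long isoform has the bases and in capitals where both have them.
Short isoform, coding bases 1 to 60: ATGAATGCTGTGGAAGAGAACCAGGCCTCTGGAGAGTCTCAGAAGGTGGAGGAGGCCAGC
Long isoform, coding bases 598 to 717: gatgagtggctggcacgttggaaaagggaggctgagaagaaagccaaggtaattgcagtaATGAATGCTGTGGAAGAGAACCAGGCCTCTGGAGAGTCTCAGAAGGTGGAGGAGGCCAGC
Long isoform, coding bases 1 to 60: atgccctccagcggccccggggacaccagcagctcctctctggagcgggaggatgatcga
Within the coding sequence, a read from the capitals can come from either isoform, and the 657 bases before them belong to the long one alone. The noncoding parts of the transcripts were not compared. Since there is 1 count per gene, it does not separate the isoforms, and the sequence of the delivered construct is not used here.

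**Figure D1:**
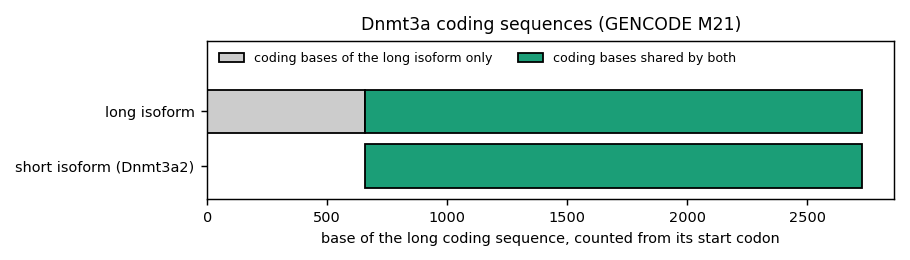
The 2 Dnmt3a coding sequences drawn to scale along the long one, in bases from its start codon (horizontal axis). The short isoform (2070 bases) covers the same stretch as the end of the long isoform (2727 bases), and only the first 657 bases of the long one are its own.

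The Dnmt3a gene lies on the plus strand of chr12:3806007-3914443 (build GRCm38), and the RefSeq table of promoters (GRCm38.p6) gives it 3 start sites. The first and the third lie far apart, and the 250 bases before each are shown because transcripts from both enter the same count. CpG dinucleotides, searched as CG (which reads the same on both strands), are in capitals.
Before the first start, chr12:3806730-3806979, plus strand: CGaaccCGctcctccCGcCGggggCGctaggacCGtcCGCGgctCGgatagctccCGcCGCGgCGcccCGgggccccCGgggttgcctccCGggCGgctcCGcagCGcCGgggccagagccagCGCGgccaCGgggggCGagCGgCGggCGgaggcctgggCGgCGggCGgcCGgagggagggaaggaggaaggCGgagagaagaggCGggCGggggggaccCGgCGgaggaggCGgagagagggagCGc
Before the third start, chr12:3891494-3891743, plus strand: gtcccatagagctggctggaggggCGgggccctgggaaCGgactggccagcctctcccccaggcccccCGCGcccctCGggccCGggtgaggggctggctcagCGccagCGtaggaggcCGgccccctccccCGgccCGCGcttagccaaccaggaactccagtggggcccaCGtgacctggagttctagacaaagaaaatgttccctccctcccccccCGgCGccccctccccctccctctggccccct
The first holds 38 CpG and the third 15. Over the 300-base windows of the table, from 250 bases before to 50 after a start, the 9 genes have 14 windows with a median of 27 CpG, against a median of 7 over all 32851 windows, and 13 of the 14 exceed that median. The Tet2 window has the most, 57, more than in 99.8% of all windows, and a Dnmt1 window on chr9 has the fewest, 2. At least 1 CpG is in 94.6% of all windows. These are counts of letters, and methylation was not measured in these libraries.

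Dnmt3a, the writer that the virus delivers, was higher in every Dnmt3a2 library than in every control library. At 1 day the 4 control libraries read 35.09, 33.60, 35.41 and 34.94 CPM and the 4 Dnmt3a2 libraries 623.2, 1096, 1153 and 982.3 CPM. At 5 days the controls read 37.69, 34.23, 32.71 and 35.94 CPM and the Dnmt3a2 libraries 1015, 1249, 1136 and 1244 CPM. The lowest Dnmt3a2 library, replicate 1 at 1 day, is one of the pair rich in choroid plexus markers and stands below the other 3 of its group, while the groups do not come near each other.

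The mean rose from 34.76 ± 0.797 to 963.7 ± 237.9 CPM at 1 day and from 35.14 ± 2.15 to 1161 ± 110.5 CPM at 5 days (SD, n = 4 each). In edgeR's quasi-likelihood test over all genes, this was a ratio of 27.7 at 1 day (95% interval 21.6 to 35.6, adjusted p = 2.19e-09) and of 33.0 at 5 days (25.7 to 42.5, adjusted p = 1.27e-09). Dnmt3a had the smallest p of all 16899 genes on both days. The log2 difference was 4.95 at 1 day without the 2 choroid-rich libraries, against 4.79 with them.

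The level of Dnmt3a did not pass the test between days within the Dnmt3a2 groups. The ratio of 5 days to 1 day was 1.20 (95% interval 0.977 to 1.49, adjusted p = 0.524), and in controls it was 1.01 (0.807 to 1.27, adjusted p = 0.999). The difference of the Dnmt3a2 effect between days was 0.25 on the log2 scale (95% interval -0.19 to 0.70, adjusted p = 1). The ranges of 623.2 to 1153 CPM at 1 day and 1015 to 1249 CPM at 5 days overlap, with replicate 1 at 1 day the lowest of all.

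**Figure D2:**
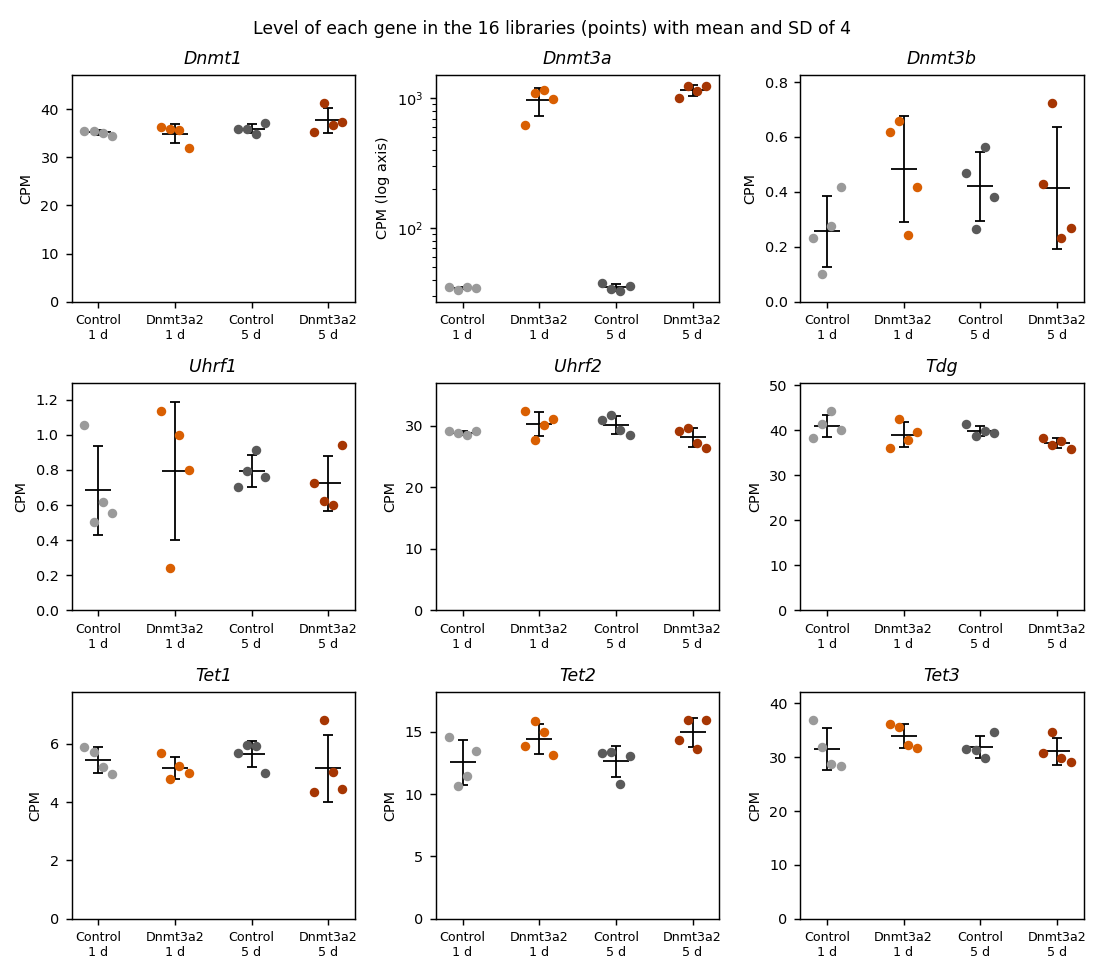
CPM of each of the 9 genes (vertical axes, logarithmic for Dnmt3a and from 0 for the others) in the 16 libraries, shown as points by group, with the mean and SD of 4 libraries in black. For Dnmt3a, 8 points sit at 623.2 to 1249 CPM and 8 at 32.71 to 37.69, whereas the ranges of the other genes lie close together in the 4 groups.

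None of the other 8 genes was called when Dnmt3a2 was compared with control on either day or in the average of the days, which uses the same libraries. The count of members called, 1 of 9, stands beside 0.0888% of all genes called at 1 day, 0.32% at 5 days and 1.43% in the contrast averaged over days. Among the other 8, the lowest adjusted p was 0.713 at 1 day, 0.501 at 5 days and 0.138 averaged over days, and their median log2 difference was 0.09, -0.07 and 0.03. The medians over all genes were 0.003, 0.008 and 0.006.

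Dnmt1, the maintenance methyltransferase (minus strand, chr9:20907209-20959888), lay between 31.89 and 41.30 CPM in all 16 libraries. The controls read 35.55, 35.52, 35.07 and 34.52 CPM at 1 day and 35.82, 35.96, 34.85 and 37.05 CPM at 5 days. The Dnmt3a2 libraries read 36.31, 35.89, 35.68 and 31.89 CPM at 1 day and 35.30, 41.30, 36.74 and 37.26 CPM at 5 days. Control and Dnmt3a2 overlap on both days, with 1 low library at 1 day and 1 high library at 5 days. Averaged over days the ratio was 1.02 (95% interval 0.961 to 1.08, adjusted p = 0.835), the narrowest interval for a ratio among the methyltransferases.

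Dnmt3b, the other de novo methyltransferase (plus strand, chr2:153649450-153687730), was near the detection limit, with 3 to 21.9 estimated counts per library. The controls at 1 day read 0.231, 0.101, 0.275 and 0.416 CPM and the Dnmt3a2 libraries 0.618, 0.660, 0.241 and 0.416 CPM. At 5 days the controls read 0.468, 0.266, 0.563 and 0.381 CPM and the Dnmt3a2 libraries 0.429, 0.724, 0.234 and 0.269 CPM. The groups overlap on both days, and counting error alone is large at such counts. The ratio was 1.88 at 1 day (95% interval 0.976 to 3.63, adjusted p = 0.721) and 0.990 at 5 days (0.528 to 1.86, adjusted p = 0.997), and the difference between these effects did not pass the test (log2 -0.93, 95% interval -2.24 to 0.38, adjusted p = 1).

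Uhrf1, which recognises hemimethylated CpG sites after DNA replication and brings Dnmt1 to them (plus strand, chr17:56303321-56323486), was also scarce, at 7 to 33 counts. Its level was 0.683 ± 0.252 CPM in control and 0.793 ± 0.392 CPM in Dnmt3a2 at 1 day, and 0.794 ± 0.090 and 0.723 ± 0.155 CPM at 5 days (SD, n = 4 each). Averaged over days the ratio was 1.03 (95% interval 0.716 to 1.48, adjusted p = 0.969), a wide interval at these counts. Uhrf1 is known as a gene of dividing cells, and the 9 tested markers of cycling cells summed to 11.72 to 18.45 CPM over the 16 libraries, with none called on either day.

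Uhrf2, the relative of Uhrf1 that binds 5-hydroxymethylcytosine (plus strand, chr19:30030513-30093722), was far better covered, at 786 to 953 counts. Its controls read 29.06, 28.71, 28.41 and 29.04 CPM at 1 day and 30.90, 31.64, 29.26 and 28.39 CPM at 5 days. The Dnmt3a2 libraries read 32.29, 27.66, 30.10 and 31.02 CPM at 1 day and 29.19, 29.62, 27.16 and 26.43 CPM at 5 days. At 1 day 3 of the 4 Dnmt3a2 libraries lie above all controls, and at 5 days 2 lie below all controls, with overlap on both days. The ratio was 1.05 at 1 day (95% interval 0.962 to 1.15, adjusted p = 0.867) and 0.935 at 5 days (0.856 to 1.02, adjusted p = 0.778). The difference between the days' effects was -0.17 on the log2 scale (95% interval -0.35 to 0.01, adjusted p = 1).

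Of the erasers, Tet2 (minus strand, chr3:133463679-133545139) had the smallest p of the 8 genes, without passing the threshold. At 1 day the controls read 14.56, 10.65, 11.47 and 13.43 CPM and the Dnmt3a2 libraries 13.84, 15.86, 14.95 and 13.10 CPM. At 5 days the controls read 13.26, 13.35, 10.77 and 13.07 CPM and the Dnmt3a2 libraries 14.33, 15.93, 13.58 and 15.94 CPM. All 8 Dnmt3a2 libraries lie above the control mean of their day, at 5 days all 4 lie above every control, and at 1 day the groups overlap.

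The Tet2 mean was 12.53 ± 1.79 CPM in control and 14.44 ± 1.22 CPM in Dnmt3a2 at 1 day, and 12.61 ± 1.23 and 14.94 ± 1.18 CPM at 5 days (SD, n = 4 each). Averaged over days the ratio was 1.17 (95% interval 1.05 to 1.29), with an unadjusted p of 0.00488 and an adjusted p of 0.138 in edgeR, where it ranked 598 of the 16899 genes. Over the 25 alternatives the adjusted p ran from 0.067 to 0.277. Groups without overlap were found for 6.29% of all genes at 5 days, and for 3.43% at 1 day.

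Tet3 (minus strand, chr6:83362373-83459084) and Tet1 (minus strand, chr10:62804570-62908996) overlapped between the groups on both days. Tet3 was at 31.50 ± 3.95 CPM in control and 33.95 ± 2.24 CPM in Dnmt3a2 at 1 day, and at 31.89 ± 2.06 and 31.11 ± 2.51 CPM at 5 days (SD, n = 4 each). Averaged over days the ratio of Tet3 was 1.03 (95% interval 0.943 to 1.12, adjusted p = 0.857).

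Tet1 was at 5.44 ± 0.442 CPM in control and 5.17 ± 0.378 CPM in Dnmt3a2 at 1 day, and at 5.63 ± 0.444 and 5.15 ± 1.15 CPM at 5 days (SD, n = 4 each). The wide SD of the last group comes with 1 high library, replicate 2 at 6.81 CPM, beside 4.33, 5.04 and 4.44 CPM in the others. On each day, the difference in the mean of either gene was smaller than the SD of at least 1 of its groups. The ratio of Tet1 averaged over days was 0.932 (95% interval 0.815 to 1.07, adjusted p = 0.730). The Tet1 count was within 0.05 of a whole number in only 2 of 16 libraries, and a count that is not whole arises where reads are divided between transcripts of different genes.

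Tdg, the glycosylase that ends the TET route (plus strand, chr10:82629828-82650799), lay lower with Dnmt3a2 at 5 days without overlap. Of the writers and erasers chosen by symbol, only Tdg did so. Among all 16899 genes tested, 556 lay lower and 507 higher without overlap at 5 days. At 1 day the controls read 38.28, 41.32, 44.17 and 39.97 CPM and the Dnmt3a2 libraries 36.04, 42.49, 37.79 and 39.62 CPM. At 5 days the controls read 41.29, 38.68, 39.92 and 39.27 CPM and the Dnmt3a2 libraries 38.27, 36.72, 37.64 and 35.78 CPM. The groups overlap at 1 day, and at 5 days the nearest libraries are 38.68 and 38.27 CPM. The ratio was 0.932 at 5 days (95% interval 0.855 to 1.02, adjusted p = 0.759) and 0.942 averaged over days (0.886 to 1.00, adjusted p = 0.433), so neither passed the test.

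Tdg shares 367 exon bases with Glt8d2 on the opposite strand, whose mean count is 284.13. Whether the counting used strand is not known from the labels, and the Tdg count was within 0.05 of a whole number in 8 of 16 libraries. Whether the counting moved reads between the pair, or between Tdg and other genes, was not tested, so its level is uncertain to an unknown degree. Overlaps of exons with antisense genes were also found for Dnmt3a (Dnmt3aos, 133 bases, mean count 0.19) and Tet2 (Gm42567, 43 bases, mean count 0.25), and those counts are far below the members' own.

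**Figure D3:**
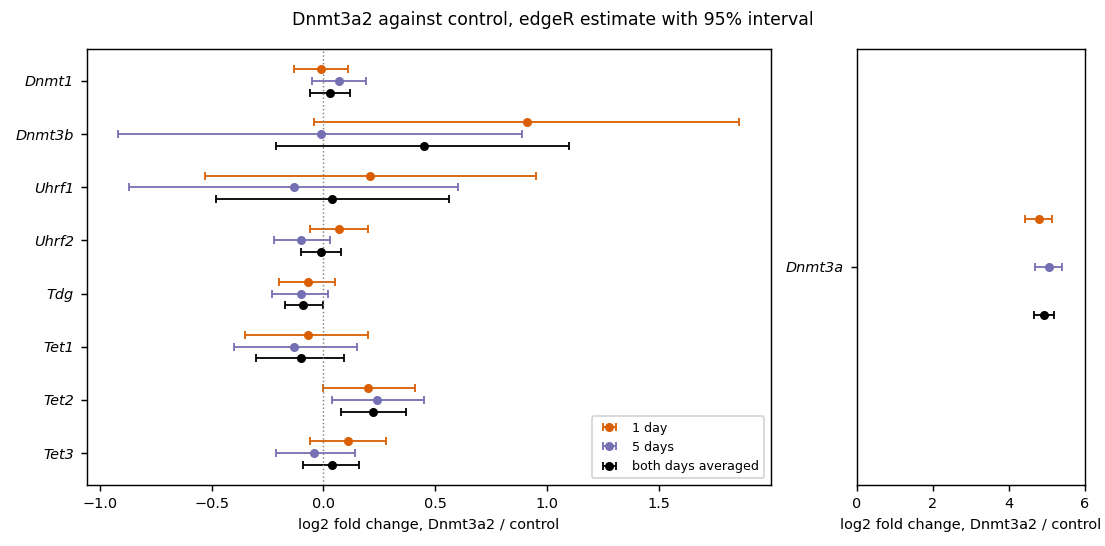
edgeR log2 fold change of Dnmt3a2 over control (horizontal axes) with its 95% interval, at 1 day, 5 days and their average, for the 8 other genes (left) and for Dnmt3a on a scale of its own (right). Dnmt3a lies at 4.79 to 5.05, whereas the averaged values of the others run from -0.10 for Tet1 to 0.45 for Dnmt3b, with the widest intervals for the scarce Dnmt3b and Uhrf1.

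Between 5 days and 1 day, none of the 9 genes was called in control or in Dnmt3a2 tissue. Of all genes tested, edgeR called 0.0% in both comparisons and 0.0% for the difference of the effects. At an unadjusted p under 0.05, it found 598 genes between days in control, 1822 in Dnmt3a2 and 360 for the difference, and DESeq2's Wald test called 0, 48 and 1. Within Dnmt3a2 tissue, the lowest adjusted p among the 8 other genes was 0.530, for Dnmt1, whose ratio of 5 days to 1 day was 1.08 (95% interval 0.990 to 1.17). Within control tissue the ratios of the 6 well covered other genes lay between 0.972 for Tdg and 1.04 for Uhrf2.

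Levels of different genes were compared per length, as CPM per kb of the union of exons, in the 8 control libraries. Tdg was the highest at 7.51 ± 0.352 CPM per kb, followed by Dnmt1 at 4.82 ± 0.106 and Uhrf2 at 3.43 ± 0.139 (SD, n = 8). Dnmt3a at 2.10 ± 0.0910 CPM per kb and Tet3 at 1.90 ± 0.175 came next, and their ranges over the libraries overlap. Below them were Tet2 at 0.745 ± 0.0843, Tet1 at 0.358 ± 0.0273, Uhrf1 at 0.173 ± 0.0434 and Dnmt3b at 0.0661 ± 0.0289 CPM per kb, each range below the one before it. Per kb of the longest annotated transcript, Uhrf2 at 8.32 passed Dnmt1 at 6.06 CPM per kb, and the rest of the order stayed.

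**Figure D4:**
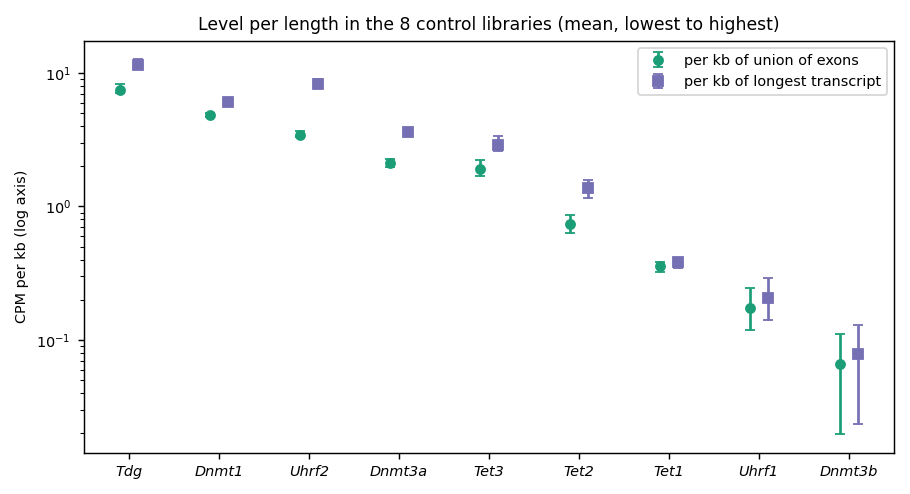
Mean CPM per kb of the 9 genes in the 8 control libraries (vertical axis, logarithmic), with bars from the lowest to the highest library, for 2 measures of length. The order runs from Tdg at 7.51 to Dnmt3b at 0.0661 CPM per kb of exons, and only Uhrf2 and Dnmt1 change places with the longest transcript.

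Among the 3 methyltransferases, Dnmt3a made up 30.2% ± 0.559 of the summed level per kb of exons in control at 1 day and 29.9% ± 1.08 at 5 days (SD, n = 4). With Dnmt3a2 its share was 91.9% ± 2.51 at 1 day and 93.1% ± 0.424 at 5 days. The length of the delivered transcript is not used in these shares: the same exon length was taken in all groups, so a shorter delivered transcript would stand for more molecules than the share shows. Among the TET genes, Tet3 held the main share in all groups, at 63.2% ± 2.21 and 63.1% ± 1.36 in control and Dnmt3a2 at 1 day, and 63.2% ± 1.78 and 60.5% ± 1.52 at 5 days.

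Whether the other genes followed the level of Dnmt3a was examined over the 8 Dnmt3a2 libraries, on log2 CPM with exact permutation tests, two-sided, adjusted over 8 relations. None passed. The nearest was Uhrf2 with Pearson's r of -0.71 (exact permutation p = 0.0291, adjusted p = 0.233) and Spearman's rho of -0.55 (exact permutation p = 0.171). Without the 2 libraries farthest from the median of Dnmt3a, replicates 1 and 4 at 1 day, r was -0.18. With only replicate 1 left out r was -0.48, and with only replicate 4 left out -0.72, so the size of r depends on the choroid-rich replicate 1.

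Tet2 had r = 0.54 (exact permutation p = 0.146, adjusted p = 0.498) and rho = 0.74 (exact permutation p = 0.0458, adjusted p = 0.332), with r = 0.53 without the same 2 libraries. Dnmt1 had r = 0.31 (exact permutation p = 0.311, adjusted p = 0.498) and rho = 0.67 (exact permutation p = 0.0831), and r was 0.75 without the 2 libraries. With only the choroid-rich replicate 1 at 1 day left out, Dnmt1 had r = 0.86 (n = 7, exact permutation p = 0.00218, adjusted p = 0.0175), and it was then the 1 gene of 8 that passed. That adjusted p covers the 8 genes, not the repeated runs with a library left out. The libraries of 1 day and 5 days were pooled here, since 4 per day are too few for a correlation within a day. With Dnmt3a2, the means at 1 day and 5 days were 963.7 and 1161 CPM for Dnmt3a and 34.94 and 37.65 CPM for Dnmt1. A difference between days therefore cannot be told apart from a relation between the 2 genes.

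The genes with the most similar profile over all 16 libraries were found among the 13051 genes whose mean reached 1 CPM, by Pearson's r of log2 CPM, as a description. Nearest to Dnmt3a were Ecm2, a matrix protein (r = 0.941), and Penk, the precursor of enkephalins (r = 0.917), but for deviations from the group means r was 0.394 and -0.068, so the likeness lies between the groups. For Dnmt1 they were Lrrc7, a postsynaptic scaffold protein (0.921), and Scn3a, a sodium channel (0.912), with 0.898 and 0.914 within groups. For Uhrf2 they were Mat2a, which makes the methyl donor S-adenosylmethionine (0.769), and Mettl4, a methyltransferase (0.767).

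For Tet1 the nearest were Prrc2b (0.841) and Htt, the huntingtin gene (0.831), for Tet2 Ccnl1, a cyclin (0.832), and Pkdrej (0.828), and for Tet3 Amer2 (0.892) and Stau1, an RNA-binding protein (0.847). Tdg was nearest to Ppa2, a mitochondrial pyrophosphatase (0.877), and Fam210b (0.852). Of the scarce genes, Dnmt3b was nearest to Serpinb9 (0.783) and Frmd4a (0.773), and Uhrf1 to Gpatch1 (0.759) and Chek2, a checkpoint kinase (0.750). The values of the well covered Uhrf2, 0.769 and 0.767, lay between those of Dnmt3b and Uhrf1. Of the 18 genes named, only those nearest to Dnmt3a lost most of their r within groups.

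The wider methylation pathway was covered by 61 other genes in 5 lists, of which 52 were tested. None of the 52 was called higher or lower with Dnmt3a2 at 1 day, at 5 days or averaged over days by edgeR. At an unadjusted p under 0.05 there were 2, 2 and 8 of the 52, beside 7.17%, 8.01% and 12.12% of all genes tested, and the lowest adjusted p was 0.575, 0.427 and 0.256. Their log2 differences averaged over days ran from -0.134 to 0.210, with a median of 0.039, beside 0.006 over all genes.

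Of the partners and histone enzymes that work with the methyltransferases, 0 of 14 tested passed in either direction (16 listed, Dnmt3l and Dppa3 too low to test), and the smallest p averaged over days were those of Ehmt2, a histone methyltransferase (log2 0.067, adjusted p = 0.557), and Atrx, a chromatin remodeller (log2 0.103, adjusted p = 0.560). Of the TET partners and regulators, 0 of 8 passed (9 listed, without Wt1), with Ogt, which adds N-acetylglucosamine to proteins and binds TET enzymes, at log2 0.107 (adjusted p = 0.294) and Ndrg2 at log2 0.112 (adjusted p = 0.330). The mean of Ogt was 107.5 ± 10.62 CPM in control and 118.6 ± 6.66 CPM in Dnmt3a2 at 5 days.

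Of the base excision repair genes, 0 of 16 passed (17 listed, without Neil3). The smallest p were those of Parp1, which senses DNA breaks (log2 0.090, adjusted p = 0.272), and Apex1, which cuts the strand after Tdg has removed the base (log2 -0.082, adjusted p = 0.394). Parp1 read 90.33 ± 1.01 CPM in control and 99.05 ± 5.59 CPM in Dnmt3a2 at 5 days. Both of the deaminases tested, Apobec3 (log2 0.161, adjusted p = 0.713) and Apobec1 (log2 0.210, adjusted p = 0.776), were under 5 CPM on average in every group and did not pass.

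Of the methyl donor cycle, which supplies S-adenosylmethionine to every methyltransferase, 0 of 12 passed (15 listed, with Mat1a, Gnmt and Bhmt too low to test). The smallest p were those of Ahcyl1 (log2 0.078, adjusted p = 0.256) and Ahcyl2 (log2 0.104, adjusted p = 0.315), relatives of the enzyme that clears the spent donor. Ahcyl1 read 247.9 ± 3.94 and 266.4 ± 11.79 CPM in control and Dnmt3a2 at 1 day, and 254.1 ± 5.73 and 263.4 ± 6.07 CPM at 5 days. The list medians averaged over days were 0.037 for writer partners, 0.064 for TET partners, 0.0 for base excision repair, 0.186 for the deaminases and 0.016 for the methyl donor cycle.

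**Figure D5:**
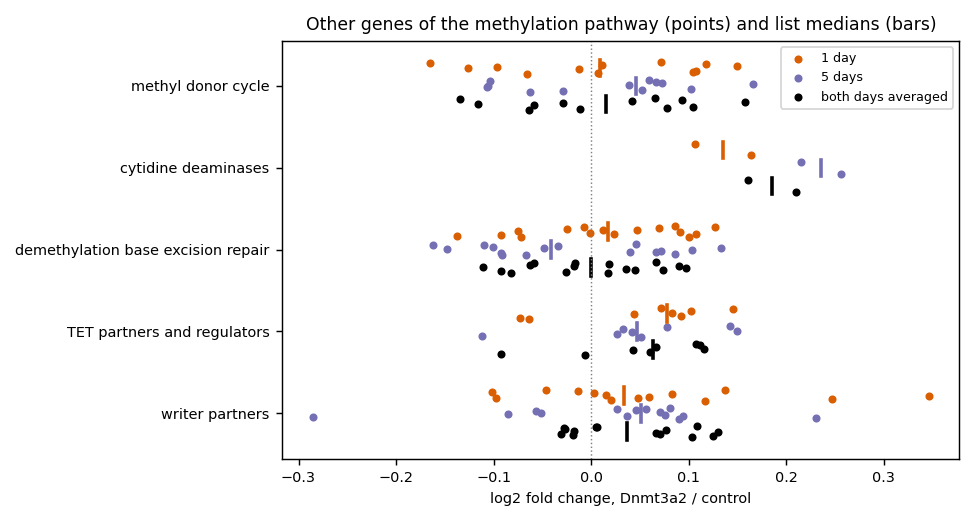
log2 fold change of Dnmt3a2 over control (horizontal axis) for each of the 52 other pathway genes tested, by list and colour (1 day, 5 days, both averaged), with the list median as a bar. The averaged values lie between -0.134 and 0.210, and no gene shown was called.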

How the data were processed

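The files were deposited per library for 16 dorsal hippocampus libraries. Per library, 1 deposited file holds expected counts (estimates per Ensembl gene, without normalisation), with 26.2% of values not exactly whole. Trim Galore 0.6.4, kallisto 0.4.6, edgeR 3.17 and build GRCm38.p6 are named per the submitters' processing notes. The deposited log2 values are log2 CPM by the authors for 16907 genes, and were checked to equal edgeR's log2 CPM of these counts within 5.3e-15. Neither the annotation release nor the strand of counting is given in the sources used here.

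Identifiers were named with GENCODE M21 (55144 of 55385 matched). In edgeR 4.0.16 (R 4.3.3), the rounded counts were passed through filterByExpr with the groups, which left 16899 genes, and TMM scaling. A single robust quasi-likelihood model of all 16 libraries had 1 coefficient for each group. The call threshold was a Benjamini-Hochberg adjusted p of 0.05 over all genes. The fit was tested on simulated data. Correlations used Python 3.11.15 and scipy 1.17.1. Alternatives were DESeq2 1.42.0 (size factors and Wald test), limma-voom (limma 3.58.1), no filter, a mean CPM of at least 1, a replicate block, a fit of only the groups compared, each library left out, and leaving out the 2 choroid-rich or 3 interferon-rich libraries. The members, lists and alternatives were chosen with earlier results of these data known. Named were all members, called pathway genes or else the 2 with the smallest p per list, and the 2 genes most like each member.

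Marker lists for other cells were astrocytes, the oligodendrocyte lineage, microglia, endothelium and mural cells, and immature neurons. Their summed CPM ran from 2875 to 3549, 2517 to 4688, 187.2 to 315.7, 119.2 to 200.2 and 49.86 to 70.09, with no marker called at 1 day or 5 days and 1 astrocyte marker called averaged over days.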

Additional observations from a re-analysis of the deposited data

Results flagged for a closer look

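In 2 of 36 sets of 4 libraries (9 genes in 4 groups), 1 library stood apart from the other 3 by more than Dixon's critical value for 4 values, measured as its gap over the whole range. Chance gives about 1 in 20 such sets. The Dnmt1 level in Dnmt3a2 at 1 day replicate 4 was 31.89 CPM, against 35.68 to 36.31 CPM in the others of its group (0.858). The Tet2 level in control at 5 days replicate 3 was 10.77 CPM, against 13.07 to 13.35 CPM in the others (0.891), and the 8 choroid plexus markers summed to 205.8 CPM in that library. The part of these markers in the Tet2 value was not tested.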

How the results depend on the processing

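Dnmt3a stayed called, with the same direction, at 1 day, at 5 days and averaged over days in all 25 alternatives (log2 4.70 to 4.96, 5.01 to 5.10 and 4.87 to 5.03). The other 8 genes had no adjusted p under 0.05 in the 25 alternatives, and the lowest was 0.067. These gave 1185 values, 1 for each gene, comparison and alternative that could be tested, and most alternatives share nearly all libraries. Counts of all genes called moved more. At 1 day (15), DESeq2's Wald test gave 65, no filter 34 and only the groups compared 7, and leaving out 1 library gave 6 (without control at 1 day replicate 2) to 22. At 5 days (54), DESeq2's Wald test gave 143, only the groups compared 94, and leaving out the choroid-rich or interferon-rich libraries 90 and 105, with 22 (without Dnmt3a2 at 5 days replicate 4) to 82 (without control at 1 day replicate 3) when 1 library was left out. Averaged over days (241), DESeq2's Wald test gave 512, and leaving out 1 library gave 121 (without control at 5 days replicate 4) to 272. Between days in Dnmt3a2 (0), DESeq2's Wald test gave 48, no filter 6, and leaving out 1 library 0 to 1. The difference between days (0) gave 1 with DESeq2's Wald test. The causes were not tested.

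Signs turned for small, uncalled log2 differences. Without the choroid-rich libraries, Uhrf1 was at -0.01 at 1 day, -0.07 averaged over days and 0.09 between days in Dnmt3a2, and Tet1 at 0.12 between days in Dnmt3a2 and 0.07 for the difference of effects. Without the interferon-rich libraries, the between-day values in Dnmt3a2 were 0.09 (Uhrf1) and 0.12 (Tet1), and the differences of effects 0.03 (Tet1) and -0.04 (Tet2). With limma-voom, Uhrf1 was at 0.04 between days in Dnmt3a2 and -0.04 averaged over days. Leaving out 1 library gave, at 1 day, -0.03 to 0.03 for Dnmt1 and -0.01 to 0.51 for Uhrf1. At 5 days it gave -0.43 to 0.18 for Dnmt3b and -0.09 to 0.01 for Tet3. Averaged over days it gave -0.07 to 0.19 for Uhrf1 and -0.03 to 0.01 for Uhrf2. Between days in control it gave -0.02 to 0.05 for Dnmt3a, -0.06 to 0.09 for Tet2 and -0.03 to 0.10 for Tet3. Between days in Dnmt3a2 it gave -0.43 to 0.09 for Uhrf1 and -0.17 to 0.07 for Tet1. For the difference of effects it gave -0.22 to 0.02 for Tet1, -0.04 to 0.11 for Tet2 and -0.07 to 0.01 for Tdg.

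Whether the replicate numbers shared by the groups pair the libraries is not settled by these values. Of pairs of equal number, 8 of 24 had a correlation over 0.1, and 6 of 16 libraries correlated best with their own number. The highest correlation, 0.38, joined the choroid-rich replicate 1 of Dnmt3a2 at 1 day and at 5 days. Pairs of unequal number exceeded 0.1 less often, with 0.244 the highest. With the replicate block, 17, 65 and 295 genes were called at 1 day, at 5 days and averaged over days, and 0 in each of the 3 other comparisons, and no member's call changed.

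Per kb of the longest transcript, the share of Dnmt3a among the methyltransferases was 37.2% and 36.8% in control at 1 day and 5 days and 94.8% in Dnmt3a2 at 5 days, and the share of Tet3 among the TET genes in Dnmt3a2 at 1 day was 61.7%. The number of members whose level followed Dnmt3a was 0 to 1 with 1 library left out. Dnmt3b and Uhrf1 had the lowest depth, at 3 to 33 counts per library, and the widest intervals.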
